A study of Mus musculus with 12 samples.

Results

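The 50 genes described here drive mitosis: Cdk1 and its cyclins, the Aurora and Polo kinases, the spindle assembly checkpoint, the kinetochore, the mitotic kinesins, condensin and the cytokinesis machinery. They were taken by symbol from a list of names, which was chosen with earlier results of these data known. All 50 were found among the 15803 transcripts with a read, and all 50 passed the filter on low values (a mean of 1 RPKM, reads scaled for length and library total) in each comparison. They were measured in KPC cells, a pancreatic ductal adenocarcinoma line from mouse tumors in which Pdx1-Cre, driven by the pancreatic Pdx1 promoter, activates engineered alleles, among them Trp53 LSL-R172H. All groups are this single line and carry these alleles. Cells received PBS, or 20 μM cisplatin (Cis), a platinum drug that crosslinks DNA, for 6 or 21 h. Ribosome profiling, which sequences the mRNA fragments (footprints) protected by ribosomes, and RNA-seq were each done on 2 libraries per group, 12 in all. The labels do not give the duration of PBS or say whether replicates were separate cultures, so p-values measure the spread between these libraries, which may be technical.

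Entry into mitosis follows activation of Cdk1 by cyclins A and B and removal of its inhibitory phosphates by Cdc25 phosphatases. Aurora and Polo kinases then build the spindle, condensin and topoisomerase II compact the chromosomes, and the checkpoint holds back the anaphase-promoting complex (APC/C) until kinetochores are attached. Most of these genes are transcribed in G2 and M phase from promoters with a cell cycle homology region (CHR), bound by the MuvB complexes with B-Myb or FoxM1, often beside CCAAT boxes bound by NF-Y. DNA damage is known to hold cells at the G2 checkpoint before mitosis.

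Promoter letters were read to show what the members share beyond their function. RefSeq windows of 250 bases before to 50 bases after the start (GRCm38.p6) were matched for 41 of the 50 members. The CHR was searched as TTTGAA or TTCGAA and the NF-Y box as CCAAT, on both strands. TTCGAA reads the same on both strands, and neither form lies within CCAAT. CHR letters were present in 32 of the 41 members (78.0%), against 21.7% of all 27025 genes with a window and 16.5% of the 8389 with a window that were tested in footprints. Within 50 bases of the start they were present in 30 members (73.2%), against 6.12% of all genes. CCAAT was present in 30 members (73.2%) and 41.1% of all genes, and both motifs in 28 members (68.3%) and 8.61% of all genes. A match describes letters, not a bound site. The 8 members with CHR letters and the largest footprint change at 21 h are shown in windows of 30 bases, with the CHR letters in capitals. In these windows the letters started between positions -30 (Prc1, counted from the downstream of its RefSeq starts, or -5 from the upstream) and 33 (Aurka), where 1 is the first transcribed base. In the Ttk window the letters are those of the opposite strand. The Anln window holds a further match on the opposite strand (ttcaaa, from position 22), left in lower case.
Aurka (chr2:172370521-172370550, minus strand): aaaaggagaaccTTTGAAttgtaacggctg
Prc1 (chr7:80294434-80294463, plus strand): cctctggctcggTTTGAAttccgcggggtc
Kif18b (chr11:102925104-102925133, minus strand): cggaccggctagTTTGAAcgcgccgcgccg
Bub1 (chr2:127831828-127831857, minus strand): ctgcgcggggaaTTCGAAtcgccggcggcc
Ttk (chr9:83834684-83834713, plus strand): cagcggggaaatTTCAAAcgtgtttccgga
Espl1 (chr15:102296254-102296283, plus strand): tcactagggataTTTGAAaggaggtgctgg
Anln (chr9:22389161-22389190, minus strand): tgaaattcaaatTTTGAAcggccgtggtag
Cenpa (chr5:30666890-30666919, plus strand): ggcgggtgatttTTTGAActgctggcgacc

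Footprint libraries held 3375480 to 5204127 reads and RNA-seq libraries 1985344 to 2901692, of which Lars2, Tmem38b and Mettl26 took 51.8 to 56.6%. Behind each member value stood 75 to 5444 footprints and 13 to 1251 RNA reads, and 51 of the 300 RNA values rested on fewer than 50 reads. Of 8 ductal epithelial markers, Krt8, Krt18, Krt19 and Cdh1 were abundant, whereas Epcam reached at most 1.83 RPKM and Muc1 at most 0.725 RPKM. The summed footprint RPKM of the 8 markers was 9113 and 9795 in PBS, 9313 and 9372 at 6 h, and 6728 and 6861 at 21 h. In RNA their sum was 1471 and 1527 RPKM in PBS and 1322 and 1368 RPKM at 21 h. Within the list, Krt8, Krt19 and Cdh1 were lower at 21 h in both assays. Krt18 RNA was 421.4 to 425.9 RPKM in PBS and 534.3 to 544.1 RPKM at 21 h, while its footprints overlapped (1570 to 1720 and 1668 to 1856 RPKM). Sox9 footprints were 11.1 to 13 RPKM in PBS and 22.8 to 30.9 RPKM at 21 h. The part of these markers in the results below was not tested. Summed markers of fibroblasts stayed at or below 9.54 RPKM, of leukocytes at or below 6.14 RPKM (4 of the 5 listed genes were in the files) and of endothelium at or below 0.666 RPKM.

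In PBS, the members had a median footprint level of 59.8 RPKM, per coding length, from 7.60 RPKM for Espl1, which encodes the cohesin protease separase, to 355.4 RPKM for Ube2c, a ubiquitin-conjugating enzyme of the APC/C. Their median RNA level was 14.6 RPKM, per transcript length. The ratio of footprint to RNA RPKM had a median of 4.32 over the members and 3.42 over the 9323 genes measured in both assays, and 36 of the 50 members lay above the median gene. Mad2l1, which inhibits Cdc20 in the checkpoint, had the highest ratio, 37.7, with 275.7 RPKM in footprints and 7.32 RPKM in RNA. Cdk1 followed with a ratio of 18.6. These ratios depend on the coding and transcript lengths used. Before division by length, Mad2l1 had means of 836.5 footprints and 148.5 RNA reads in PBS, and Cdk1 1294 and 186. Top2a, with a ratio of 4.22, had 5319 and 784. The part of length in the ranking was not tested. Foxm1, which encodes the FoxM1 factor named above, had the lowest ratio, 0.964.

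At 6 h of Cis, no member passed the test in either assay or in translation efficiency (TE, the change of footprints relative to RNA). In footprints the members had a median log2 fold change of -0.02, beside -0.01 over all genes tested, and 12 (24%) had an unadjusted p under 0.05, 4 of them higher, near the share of all genes (2217, or 21.4%, 1072 of them higher). The limma test on log2(scaled RPKM + 0.5), adjusted over all genes by Benjamini-Hochberg, called 1.05% of all genes higher and 0.992% lower. A fit of recovered read counts (limma voom) called 1 member higher, the Cdk1-activating phosphatase gene Cdc25b, and 7 lower, Kif4, Hmmr, Cenpe, Anln, Tpx2, Cenpf and Ccnb2. That fit called 4.37% of all genes higher and 7.92% lower. In RNA the median of the members was -0.11, no gene of 9443 was called (0.0% in each direction), and 9 members (18.0%) had an unadjusted p under 0.05, 2 of them higher, against 1086 of all genes (11.5%), 537 of them higher. Limma voom called 1 member lower in RNA, Smc4, while calling 0.604% of all genes higher and 1.82% lower. For TE at 6 h, 4 members (8.0%) had an unadjusted p under 0.05, all higher, near the share of all genes (710, or 7.64%, 339 of them higher), and no gene of 9295 was called (0.0% in each direction).

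The members with the lowest p at 6 h, none of them past the threshold, were Tpx2, Anln and Kif4 in footprints. Tpx2, which targets Aurora A to the spindle, had 117.5 and 121.1 RPKM in PBS and 91.6 and 88.5 RPKM at 6 h (log2 fold change -0.42 ± 0.10 SE, adjusted p = 0.0691 by limma). Anln, the anillin scaffold of the cleavage furrow, had 22.0 and 21.4 RPKM in PBS and 14.9 and 16.3 RPKM at 6 h (adjusted p = 0.0973). Kif4, a chromosome-arm kinesin, had 15.1 and 17.7 RPKM in PBS and 10.3 and 11.7 RPKM at 6 h (log2 fold change -0.57 ± 0.16 SE). In each of the 3 genes both Cis libraries lay below both PBS libraries, which their choice by lowest p made likely. In RNA the lowest p values belonged to Nusap1, Birc5 and Smc4. Nusap1, a spindle microtubule-binding protein, had 15.8 and 17.6 RPKM in PBS and 10.2 and 11.3 RPKM at 6 h. Birc5, the survivin subunit of the chromosomal passenger complex, lay on the other side, with 48.5 and 52.0 RPKM in PBS and 59.6 and 59.5 RPKM at 6 h. Smc4, a condensin ATPase, had 18.6 and 19.8 RPKM in RNA in PBS and 11.4 and 14.8 RPKM at 6 h. Its footprints were 93.4 and 100.0 RPKM in PBS and 100.4 and 99.7 RPKM at 6 h, which overlapped. Smc4, Kif2c and Nusap1 had the lowest p for TE at 6 h, with log2 changes of 0.52, 0.56 and 0.46. Kif2c, a microtubule-depolymerizing kinesin, had 52.9 and 55.4 RPKM in footprints in PBS and 62.1 and 67.4 RPKM at 6 h, and 10.4 and 9.82 RPKM in RNA in PBS and 6.91 and 8.38 RPKM at 6 h.

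At 21 h of Cis, 29 of the 50 members rose in footprints, 1 fell (Ect2) and 20 did not pass. The same test called 18.9% of all genes higher and 20.2% lower. The members' median log2 fold change was 0.40, with a range of -0.44 to 1.12, beside a median of 0.01 over all genes. Changes above 0 were seen in 43 members, and in 5249 of the 10383 genes tested. In RNA, 23 members rose, none fell and 27 did not pass, against 11.6% of all genes higher and 12.2% lower. The members' median in RNA was 0.50, with a range of -0.30 to 1.36. Without either PBS library, or without replicate 2 of the 21 h group, fewer members and fewer of all genes were called higher in RNA. Fewer of all genes were also called higher in RNA without replicate 1 of the 21 h group. The members' RNA median was 0.48 to 0.52 over the fits with a library left out. The 6 h and 21 h comparisons share their PBS libraries. In these bulk cultures, more cells in G2 or mitosis and more mRNA per cell cannot be told apart.

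**Figure D1:**
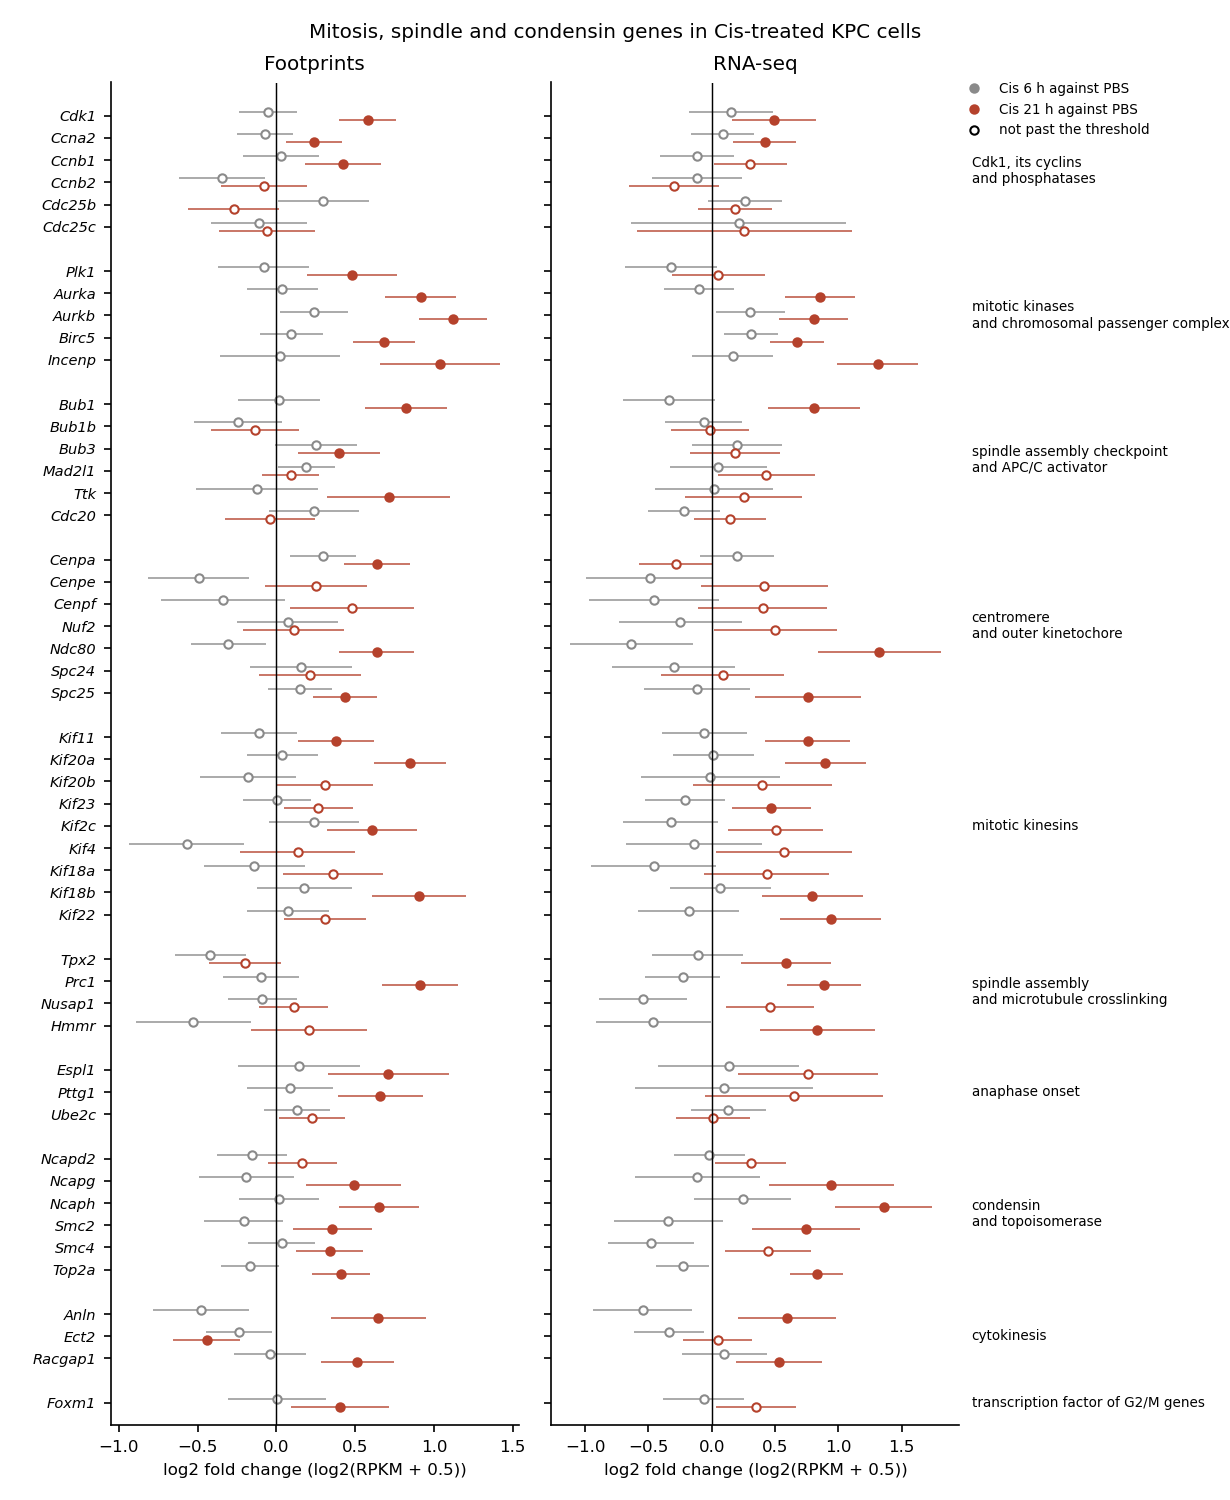
Log2 fold change of each of the 50 members against PBS (x axis, on log2(scaled RPKM + 0.5)) in footprints (left) and RNA-seq (right) at 6 h (grey) and 21 h (red), grouped by role. Bars are 95% confidence intervals from limma, with 2 libraries per group. Filled points passed an adjusted p of 0.05, which 30 members did in footprints at 21 h and none at 6 h.

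The summed levels, as all RPKM values here, are given as deposited. The summed footprint RPKM of the 50 genes was 4481 and 4452 in PBS, 4575 and 4557 at 6 h and 5857 and 6210 at 21 h. In RNA the sums were 852.7 and 890.9 RPKM in PBS, 788.5 and 826.6 RPKM at 6 h and 1245 and 1386 RPKM at 21 h. In both assays the 21 h libraries lay above all others. After the scaling used in the tests this held, with 5731 and 6106 RPKM in footprints and 1195 and 1266 RPKM in RNA at 21 h, and the scaled RNA sums at 6 h (822.1 and 858.6 RPKM) overlapped those in PBS (855.0 and 875.1 RPKM).

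**Figure D2:**
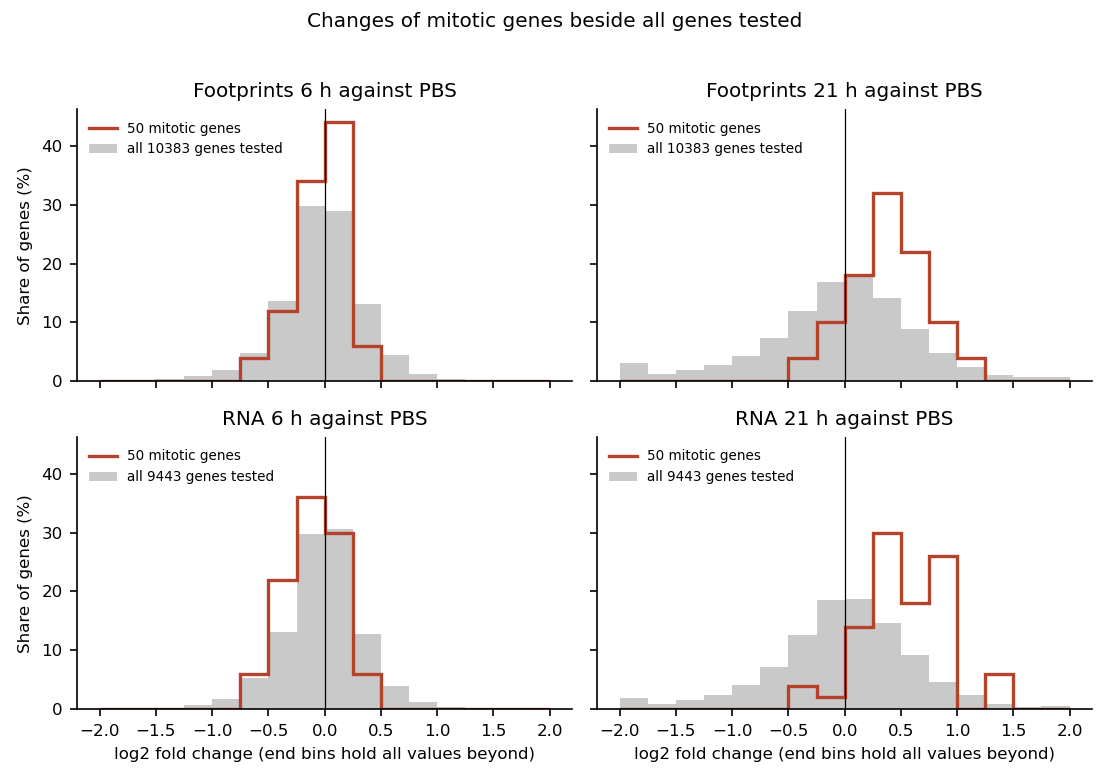
Share of genes (y axis, %) in bins of log2 fold change against PBS (x axis) for all genes tested (grey bars) and the 50 members (red line), in footprints (top) and RNA-seq (bottom) at 6 h (left) and 21 h (right). At 6 h both distributions lie around 0. At 21 h the members have medians of 0.40 in footprints and 0.50 in RNA.

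The mitotic kinases and the chromosomal passenger complex, which corrects kinetochore attachments and guides cytokinesis, rose in 5 of 5 members in footprints and 4 of 5 in RNA, with a median footprint change of 0.92. Aurkb (ENSMUSG00000020897), the kinase of the complex, had 93.0 and 84.8 RPKM in PBS, 106.5 and 105.3 RPKM at 6 h and 187.4 and 210.5 RPKM at 21 h in footprints. Incenp (ENSMUSG00000024660), its scaffold, had 30.6 and 43.7 RPKM in PBS, 36.5 and 38.7 RPKM at 6 h and 80.6 and 74.9 RPKM at 21 h. Aurka (ENSMUSG00000027496), the spindle pole kinase, had 98.5 and 90.6 RPKM in PBS, 104.8 and 91.7 RPKM at 6 h and 177.2 and 189.3 RPKM at 21 h. In these 3 genes the 21 h libraries stood clear of the other 4, which their choice by largest rise made likely. The changes were the 3 largest of the members in footprints at 21 h: 2.17-fold for Aurkb (log2 1.12 ± 0.10 SE, adjusted p = 8.43e-05), 2.06-fold for Incenp (1.04 ± 0.17 SE, adjusted p = 0.0017) and 1.89-fold for Aurka (0.92 ± 0.10 SE, adjusted p = 0.000271). Birc5 had the highest PBS level of the group, 285.5 and 309.6 RPKM, with 316.7 and 324.5 RPKM at 6 h and 469.6 and 511.3 RPKM at 21 h. Plk1, the Polo kinase, rose in footprints (log2 0.48 ± 0.13 SE), while its RNA changed by 0.05 ± 0.16 SE and did not pass.

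Of Cdk1 and its regulators, 3 of 6 rose in footprints and 2 of 6 in RNA. Cdk1, the kinase that drives mitotic entry, had 286.6 and 303.4 RPKM in PBS, 282.0 and 292.9 RPKM at 6 h and 444.5 and 459.5 RPKM at 21 h (1.49-fold, log2 0.58 ± 0.08 SE). Its RNA had 16.3 and 15.5 RPKM in PBS, 16.7 and 17.0 RPKM at 6 h and 20.9 and 27.3 RPKM at 21 h. Ccna2 and Ccnb1, which encode cyclins A2 and B1, were higher in footprints by 0.24 and 0.42 (log2). Ccnb2, Cdc25b and Cdc25c passed in neither assay at 21 h, with footprint changes of -0.08, -0.27 and -0.06. Within this group the kinase and its main cyclins rose and the phosphatases gave no call.

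Of the checkpoint genes and Cdc20, 3 of 6 rose in footprints. Bub1, a kinetochore kinase of the checkpoint, had 26.3 and 24.7 RPKM in PBS, 27.0 and 25.2 RPKM at 6 h and 47.5 and 45.9 RPKM at 21 h (1.77-fold, log2 0.82 ± 0.11 SE). Mad2l1, the group's most abundant in footprints, had 276.8 and 274.5 RPKM in PBS, 331.0 and 305.4 RPKM at 6 h and 303.5 and 298.4 RPKM at 21 h (log2 0.09, adjusted p = 0.397 by limma). Ttk, the Mps1 kinase upstream of Bub1 at the kinetochore, and Bub3, the partner of Bub1, were the others to rise, by 0.71 and 0.40 (log2). Bub1b and Cdc20, the checkpoint protein BubR1 and the APC/C activator it inhibits, did not pass, at -0.14 and -0.04. In RNA only Bub1 of the 6 passed.

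**Figure D3:**
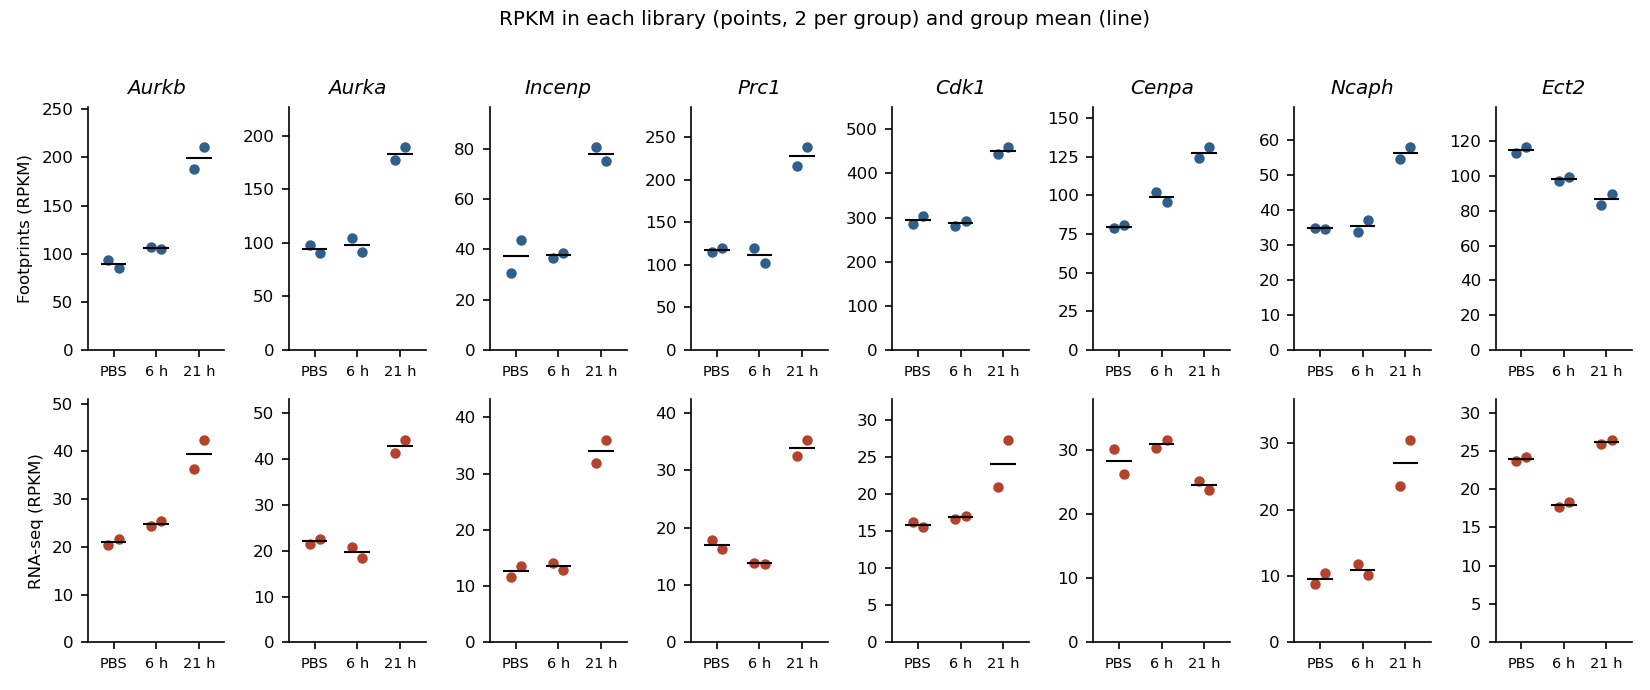
RPKM (y axis, from 0) of 8 named members in every library (points) with the group mean (line), in footprints (top) and RNA-seq (bottom), for PBS and for 6 and 21 h of Cis. Aurkb, Aurka, Incenp, Prc1, Cdk1 and Ncaph lie highest at 21 h in both assays, Cenpa rises in footprints with no rise in RNA, and Ect2 lies lowest at 21 h in footprints.

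Of 7 centromere and outer kinetochore genes, 3 rose in footprints (Cenpa, Ndc80, Spc25) and 2 in RNA (Ndc80, Spc25). Spc25, a subunit of the Ndc80 complex that binds microtubules, was the group's most abundant in PBS footprints, with 143.1 and 135.8 RPKM, 148.1 and 165.2 RPKM at 6 h and 190.5 and 196.4 RPKM at 21 h. Ndc80 (ENSMUSG00000024056) itself had 56.7 and 61.9 RPKM in PBS, 50.1 and 46.6 RPKM at 6 h and 95.2 and 94.3 RPKM at 21 h in footprints. Its RNA went from 4.98 and 7.36 RPKM in PBS and 3.20 and 3.94 RPKM at 6 h to 16.2 and 17.6 RPKM at 21 h. That made 2.50-fold against PBS in RNA (log2 1.32 ± 0.22 SE, adjusted p = 0.00262) and 1.55-fold in footprints. Nuf2 and Spc24, the remaining subunits of the same complex, did not pass in footprints at 21 h, at 0.11 and 0.22. Cenpe and Cenpf, a kinesin and a large protein of the outer kinetochore, did not pass in either assay.

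Cenpa (ENSMUSG00000029177), the histone H3 variant that marks the centromere, was the only member to pass for TE, where the test called 0.258% of all genes higher and 0.151% lower at 21 h. Its footprints had 78.9 and 80.6 RPKM in PBS, 102.3 and 95.8 RPKM at 6 h and 124.2 and 131.0 RPKM at 21 h. Its RNA had 30.2 and 26.3 RPKM in PBS, 30.2 and 31.6 RPKM at 6 h and 25.2 and 23.8 RPKM at 21 h. Footprints rose (log2 0.64 ± 0.09 SE, adjusted p = 0.000991), and the RNA value at 21 h was -0.28 ± 0.13 SE (adjusted p = 0.147). The TE change was 0.92 ± 0.16 SE (adjusted p = 0.036), and in 13 of 20 alternatives it was no longer past the threshold, with adjusted p values from 0.029 to 0.142 over all of them. Leaving out any of the 6 footprint libraries, either PBS RNA library or replicate 2 of the 21 h RNA libraries ended the call.

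For TE at 21 h over all members, the median was -0.10, beside -0.04 over all genes. Of the members, 11 (22.0%) had an unadjusted p under 0.05, 10 of them lower, against 1183 of 9295 genes (12.7%), 503 of them higher. The 10 lower ones, named after their values were seen, were Tpx2, Ncaph, Ndc80, Kif22, Hmmr, Ect2, Cdc25b, Top2a, Kif11 and Mad2l1, with log2 values from -0.78 for Tpx2 to -0.34 for Mad2l1. None of these 10 passed after adjustment, Tpx2 coming nearest with an adjusted p of 0.109 by limma.

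Mitotic kinesins, motors that move chromosomes and shape the spindle, had changes above 0 in 9 of 9 members in both assays. Over all genes tested, 5249 of 10383 lay above 0 in footprints and 4831 of 9443 in RNA. By the test, 4 kinesins rose in footprints and 5 in RNA. Kif18b, which shortens astral microtubules, had 18.1 and 18.4 RPKM in PBS, 21.0 and 20.8 RPKM at 6 h and 32.9 and 38.3 RPKM at 21 h in footprints (1.87-fold, log2 0.91 ± 0.13 SE). Kif20a, Kif2c and Kif11 rose by 0.85, 0.61 and 0.38. Kif23, the centralspindlin motor and the group's most abundant in PBS footprints, had 74.1 and 77.5 RPKM in PBS, 76.0 and 77.4 RPKM at 6 h and 90.5 and 96.7 RPKM at 21 h. Its footprint change of 0.27 did not pass (adjusted p = 0.0541 by limma), whereas its RNA rose by 0.47. Kif22, a chromosome-arm motor, rose in RNA by 0.94, and its footprint change of 0.31 did not pass.

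Of 4 spindle assembly proteins, Prc1 alone rose in footprints, and Prc1, Hmmr and Tpx2 rose in RNA. Prc1, which bundles antiparallel microtubules in the spindle midzone, had 115.6 and 119.5 RPKM in PBS, 120.0 and 102.6 RPKM at 6 h and 216.7 and 238.4 RPKM at 21 h (1.88-fold, log2 0.91 ± 0.11 SE). Nusap1, the most abundant of the group, had 122.6 and 131.0 RPKM in PBS, 127.1 and 113.8 RPKM at 6 h and 139.3 and 141.3 RPKM at 21 h (log2 0.11, adjusted p = 0.392 by limma). Tpx2 had 114.6 and 99.2 RPKM in footprints at 21 h, under both PBS libraries, and a change of -0.20 that did not pass. Its RNA rose by 0.58, from 18.1 and 20.8 RPKM in PBS to 27.0 and 35.7 RPKM at 21 h.

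Espl1, in the anaphase-onset group, had 7.71 and 7.50 RPKM in PBS, 8.15 and 8.95 RPKM at 6 h and 12.3 and 13.9 RPKM at 21 h in footprints (log2 0.71 ± 0.17 SE). Its call was lost without either PBS library. Pttg1, which encodes securin, the inhibitor of separase, rose in footprints by 0.66 ± 0.12 SE. Ube2c, the most abundant member of all in footprints, had 379.7 and 331.2 RPKM in PBS, 404.4 and 381.2 RPKM at 6 h and 403.6 and 449.4 RPKM at 21 h, and did not pass (log2 0.23). None of the 3 passed in RNA.

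Condensin and topoisomerase II, which compact and untangle chromosomes, rose in footprints in 5 of 6 members and in RNA in 4 of 6. Ncaph (ENSMUSG00000034906), the kleisin subunit of condensin I, had 34.8 and 34.5 RPKM in PBS, 33.7 and 37.2 RPKM at 6 h and 54.4 and 57.8 RPKM at 21 h in footprints. Its RNA had 8.74 and 10.5 RPKM in PBS, 11.8 and 10.1 RPKM at 6 h and 23.6 and 30.5 RPKM at 21 h. The RNA change was the largest of the members, 2.56-fold (log2 1.36 ± 0.17 SE, adjusted p = 0.000745), followed by Ndc80 and by Incenp (1.31 ± 0.14 SE). Incenp had 11.68 and 13.56 RPKM in RNA in PBS, 14.1 and 12.95 RPKM at 6 h and 31.84 and 36.02 RPKM at 21 h. Top2a, topoisomerase II alpha, had 228.2 and 243.1 RPKM in PBS, 211.2 and 212.6 RPKM at 6 h and 321.5 and 321.0 RPKM at 21 h in footprints. Its RNA had 53.4 and 58.2 RPKM in PBS, 45.1 and 45.5 RPKM at 6 h and 102.9 and 108.1 RPKM at 21 h (1.78-fold). Ncapd2 passed in neither assay.

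The cytokinesis genes differed in direction. Anln had 32.9 and 37.5 RPKM in footprints at 21 h, a rise of 0.65 ± 0.13 SE (log2) against PBS. Racgap1, the centralspindlin subunit that binds Ect2, rose by 0.51 ± 0.10 SE. Ect2 (ENSMUSG00000027699), the exchange factor that activates RhoA at the cleavage furrow, had 113.1 and 116.5 RPKM in PBS, 97.2 and 99.3 RPKM at 6 h and 83.1 and 89.9 RPKM at 21 h in footprints, with no overlap between the groups. It was the only member to fall at 21 h (0.735-fold, log2 -0.44 ± 0.09 SE, adjusted p = 0.0058). Its RNA had 23.7 and 24.2 RPKM in PBS, 17.6 and 18.3 RPKM at 6 h and 26.0 and 26.5 RPKM at 21 h, with a 21 h change of 0.05 ± 0.12 SE. Foxm1 had 17.9 and 17.1 RPKM in PBS, 19.1 and 16.6 RPKM at 6 h and 24.4 and 23.5 RPKM at 21 h in footprints (log2 0.40 ± 0.14 SE, adjusted p = 0.0447). That call was lost in 10 of 15 alternatives (adjusted p from 0.0123 to 0.151).

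Set side by side, 19 members rose in both assays at 21 h, 10 in footprints only by this threshold, 4 in RNA only (Tpx2, Kif22, Hmmr and Kif23) and 16 in neither, with Ect2 the remaining member. Both log2 changes were above 0 in 42 members. These joint counts were made over the members only, so no share of all genes stands beside them. Taken singly, footprints were called higher for 18.9% of all genes and RNA for 11.6%. Across the 50 genes, which are not independent replicates, footprint and RNA changes had a Pearson r of 0.571 and a Spearman rho of 0.577.

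**Figure D4:**
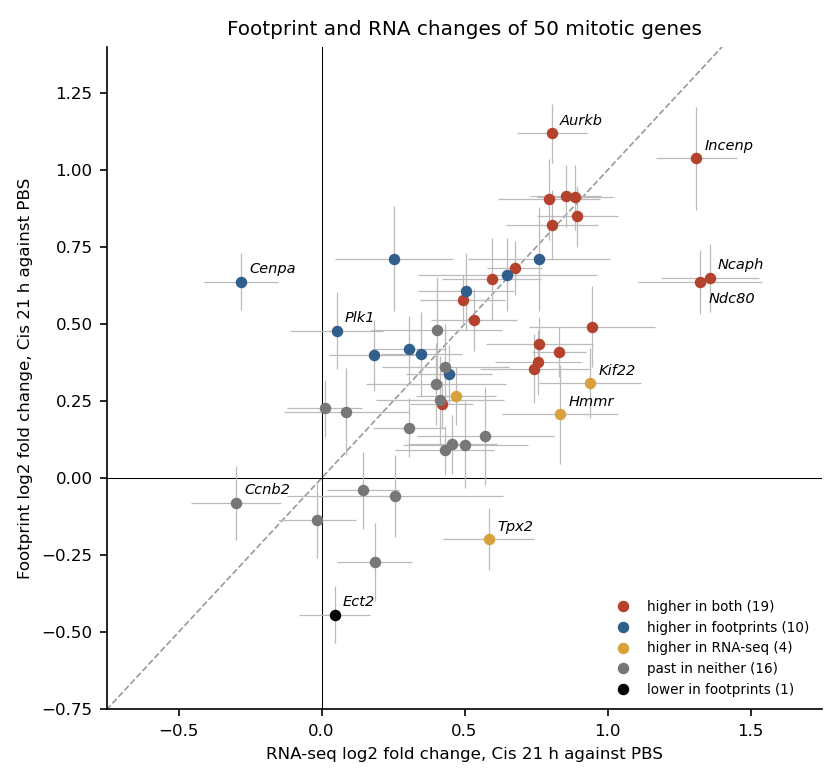
Log2 fold change at 21 h against PBS in RNA-seq (x axis) and footprints (y axis) for the 50 members, with bars of 1 SE and the line of equal change (dashed). Colors give the 19 members higher in both assays, 10 in footprints only, 4 in RNA only, 16 in neither, and Ect2. Cenpa lies above the line, at -0.28 in RNA and 0.64 in footprints, and Tpx2 below it, at 0.58 and -0.20.

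The 21 h libraries were also compared with the 6 h libraries. In footprints 33 members were higher and 1 lower, against 15.0% of all genes higher and 15.7% lower, with a member median of 0.49. In RNA 27 members were higher and 1 lower, against 7.53% higher and 8.21% lower, with a member median of 0.69. Without scaling of the RNA libraries the median of all genes in this comparison shifted by 0.14, and 1234 genes were higher and 514 lower in place of 711 and 775. Fewer members and fewer of all genes were higher in either assay, whichever of its libraries was left out. With a library left out, the member medians were 0.46 to 0.54 in footprints and 0.54 to 0.69 in RNA. Anln had the largest footprint rise from 6 to 21 h and Ndc80 the largest RNA rise. Hmmr, a spindle assembly factor, had 4.53 and 4.67 RPKM in RNA at 6 h and 11.5 and 15.5 RPKM at 21 h. Cdc25b was the member lower in footprints, with 112.3 and 94.6 RPKM in PBS, 124.5 and 131.8 RPKM at 6 h and 78.3 and 97.6 RPKM at 21 h, and Cenpa the member lower in RNA.

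Genomic span, the distance from first to last exon in the RefSeq gene table, was compared because long genes were lower after Cis in these libraries. Genes of 100 kb or more had a median footprint change of -1.08 at 21 h, and genes of 50 to 100 kb -0.33, against 0.21 for genes under 20 kb. The members had a median span of 25.6 kb, beside 22.6 kb for all genes. In genes under 20 kb the 22 members had a median of 0.41, and in genes of 20 to 50 kb the 22 members had a median of 0.45 beside 0.05 for all genes of that span. The 5 members of 50 to 100 kb had a median of 0.31 and the member over 100 kb, Kif4, 0.14. Across members, span and footprint change had a Pearson r of -0.121 and a Spearman rho of -0.143, as a description. For span and RNA change the values had the other sign, 0.247 and 0.172.

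**Figure D5:**
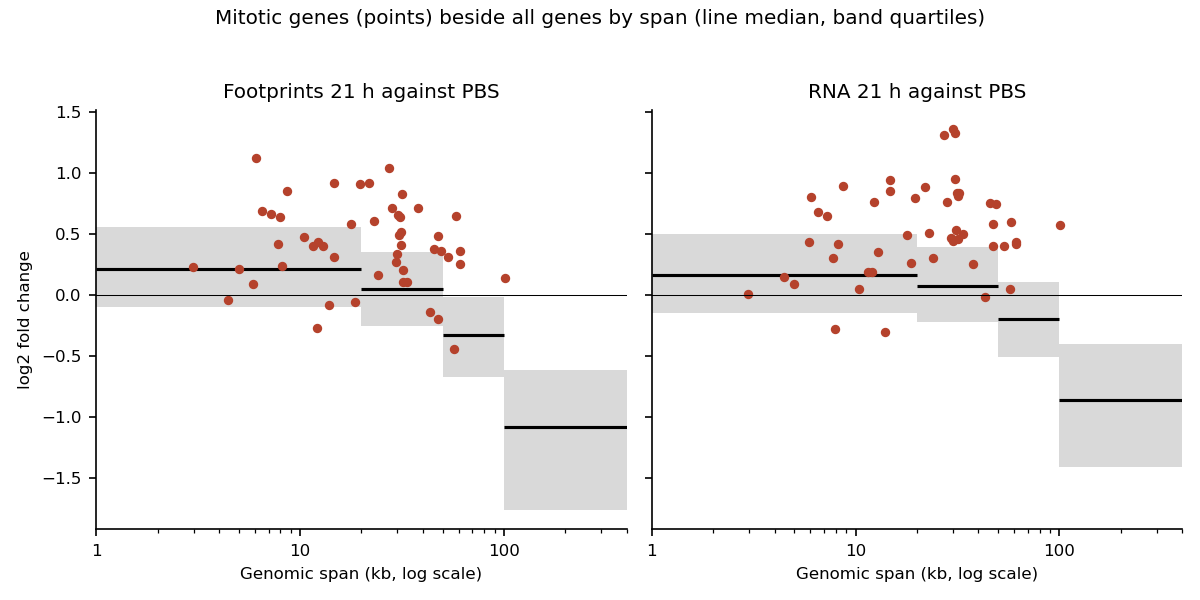
Log2 fold change at 21 h against PBS (y axis) by genomic span (x axis, kb, log scale) in footprints (left) and RNA-seq (right). Points are the 50 members, black lines the median and grey bands the quartiles of all genes tested in 4 bins of span. The band falls with span, and 4 of the 5 members of 50 to 100 kb lie above 0 in footprints.

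By promoter letters, the median footprint change at 21 h was 0.42 for the 32 members with CHR letters (19 higher), 0.36 for the 9 without (4 higher) and 0.34 for the 9 with no window (6 higher). The differences were not tested.

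Other genes of the same pathways were taken from 6 lists of 147 genes, chosen by function with earlier results of these data known. At 21 h, 64 of the 147 (43.5%) rose in footprints and 24 (16.3%) fell, with a median of 0.33, beside 18.9% and 20.2% of all genes. In RNA 49 (33.3%) rose and 8 (5.44%) fell, beside 11.6% and 12.2% of all genes. Kinetochore and checkpoint genes had 22 of 36 higher and 2 lower (Mad1l1 and Cenpp), with Nsl1 (1.71), Mad2l1bp (1.64) and Mis12 (1.21) the largest rises. Spindle, centrosome and cytokinesis genes had 19 of 41 higher and 7 lower, led by Troap (1.35), Gtse1 (1.26) and Haus8 (1.14), while Clasp1 (-1.96), Clasp2 (-1.27) and Kiz (-1.10) fell. Kinases, phosphatases and Cdk regulators had 10 of 21 higher and 3 lower, with the Cdk1-inhibitory kinase gene Pkmyt1 (1.14) and Cdc25a (0.99) the largest rises and Bora, an activator of Polo kinase, next (0.86), and Nek7 (-1.58), Nek6 (-0.82) and Ppp2r2a (-0.29) the falls.

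Condensin II and cohesin genes had 4 of 16 higher (25.0%) and 5 lower (31.2%), shares near those of all genes (18.9% and 20.2%). Cdca5, which encodes the cohesin protector sororin, rose by 0.98, Ncapg2, a condensin II subunit, by 0.88 and the centromeric cohesion protector Sgo2a by 0.59. Stag1, a cohesin subunit gene, fell by 2.89 on the log2 scale, Pds5a by 0.80 and Pds5b by 0.75. These 3 genes span 361, 92.5 and 137 kb, and Mad1l1, which fell by 3.20, spans 313 kb. Spans of the other genes named from these lists are not given, and the part of span in these changes was not tested. APC/C genes, also with shares near those of all genes, had 4 of 17 higher (23.5%), led by Anapc7 (0.78), Anapc16 (0.68) and Anapc11 (0.58), and 5 lower (29.4%), led by Cdc26 (-0.56), Anapc5 (-0.44) and Anapc13 (-0.43). Transcriptional regulators of G2/M genes had 5 of 16 higher, among them the MuvB subunit Lin9 (0.73), the NF-Y subunit Nfya (0.72) and E2f8 (0.62), and 2 lower, E2f4 (-0.58) and E2f5 (-0.52).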

How the data were processed

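The values the authors deposited are RPKM for a representative transcript of each gene in each library, with replicates not pooled. Footprints were divided by coding length and RNA-seq reads by transcript length. The submitters' processing notes list cutadapt, STAR and GRCm39, without versions or roles. Multiplied by length, 100% of the values came out as whole reads (tolerance 0.001), which gave the read numbers here. Transcripts not listed were set to 0. Read numbers cover counting error only.

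RPKM was scaled by median-of-ratios factors, genes under a mean of 1 were dropped, and limma 3.58.1 (R 4.3.3, empirical Bayes with a variance trend) was run on log2(RPKM + 0.5), the 3 groups of an assay in 1 model. TE was tested as an assay-by-treatment interaction across all 12 libraries. Tests were two-sided, adjusted by Benjamini-Hochberg over all genes, with a threshold of 0.05. An exact permutation test of 2 against 2 libraries cannot go below 0.333 and was not used. Scripts were tested on simulated data. Fold changes on this scale understate those of low genes. Alternatives were pseudocounts of 0.1 and 1, no filter, no scaling, quantile normalization, no variance trend, only the groups compared, a replicate block, limma voom on recovered reads and leaving out each library.

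The members and lists were chosen with earlier results of these data known. Values in every library are given for the member of each role with the largest footprint change at 21 h and that with the highest PBS footprints, for members past the threshold in TE, and for the 3 largest rises and falls in each comparison (the 3 lowest p where none passed); at most 3 rises and 3 falls are named from each other list. Promoter windows and spans are from RefSeq (GRCm38.p6), and spans were used as lengths only. No protein sequence was used here.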

Additional observations from a re-analysis of the deposited data

Results flagged for a closer look

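The change at 21 h differed from the change at 6 h for many members, by a direct test of 21 h against 6 h libraries (limma, adjusted over all genes), which is the difference of both changes since they share the PBS libraries. In footprints 33 members were higher and 1 was lower, against 15.0% of all genes higher and 15.7% lower. The largest differences were 1.13 for Anln (log2, adjusted p = 0.000742), 1.02 for Incenp (adjusted p = 0.00307) and 1.01 for Prc1 (adjusted p = 0.000404), and Cdc25b was lower, at -0.57 (adjusted p = 0.0112). The call for Cdc25b was lost without the variance trend and without replicate 2 of the 6 h group.

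In RNA 27 members were higher and 1 was lower, against 7.53% of all genes higher and 8.21% lower. Ndc80 differed by 1.96 (adjusted p = 0.000707), Hmmr by 1.30 (adjusted p = 0.00375) and Incenp by 1.15 (adjusted p = 0.0011), while Cenpa was lower, at -0.48 (adjusted p = 0.0351). The call for Cenpa was lost in 7 of 15 alternatives, among them no scaling, no filter on low RPKM and leaving out any of the 4 libraries at 6 or 21 h. Ndc80 rested on 14 RNA reads in replicate 1 of the 6 h group.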

How the results depend on the processing

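The member counts, the member medians and 42 results of named members were recomputed, and none of these changed direction. Other named genes were not recomputed. Counts over all genes moved as well. At 21 h against PBS, genes higher under the other settings numbered 1637 to 2262 in footprints (1960 as reported) and 712 to 1481 in RNA (1093 as reported). With any library left out, fewer of all genes were higher in footprints, and in RNA fewer were higher without a PBS or 21 h library. At 21 h against PBS the members higher in footprints numbered 21 to 26 with a library left out and 24 to 36 under the other settings (29 as reported), and those lower 1 to 2, Cdc25b joining Ect2 under quantile normalization (2), limma voom (2) and without replicate 2 of the 21 h group. In RNA 11 to 26 were higher with a library left out and 17 to 33 otherwise (23 as reported). At 21 h against 6 h, 18 to 32 were higher in footprints with a library left out and 0 to 2 lower, with 0 lower without the variance trend and 2 lower under limma voom (Cdc25b and Cdc20). In RNA 17 to 25 were higher with a library left out and 0 to 1 lower, with 0 lower without the filter, without scaling and without the variance trend. At 6 h, limma voom called 1 member higher and 7 lower in footprints and 1 lower in RNA, fitting only the groups compared called 1 lower in footprints (Tpx2), and leaving out a library 0 to 1. For TE at 21 h, 0 members were higher without the filter and without the variance trend, and 0 to 1 with a library left out. Within an assay, replicate numbers did not pair the libraries of different groups. Deviations of same-numbered libraries from their group means correlated between -0.0143 and 0.0215 across genes. Pairing of a footprint library with the RNA library of the same number was not checked in this way. With the replicate block, 26 members were higher and 1 lower in footprints at 21 h and 24 higher in RNA, and 0 were higher for TE, also 0 with footprint and RNA libraries paired by number. RNA depth limits the members with few reads, and where a group was left with 1 library it was assumed to vary like the others. Causes of these differences were not tested.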
